A study of Caenorhabditis elegans and Caenorhabditis briggsae
Caenorhabditis elegans with 146 samples.

Results

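Heterozygous embryos of strain MK4 were compared with wild type N2 embryos at the early embryo stage, over 5 mRNA-seq libraries of the 146 samples in the series. The members were the 2 MK4 heterozygous and the 3 N2 early embryo libraries, taken by their labels, and the question was which maternal and zygotic transcripts differed once embryo age was considered. MK4 carries the null allele dpy-27(y56) over the balancer qC1, which bears dpy-19(e1259), glp-1(q339) and the integrated transgene qIs26, and the study describes its balancer as encoding the dominant marker rol-6(su1006). N2 carries none of these alleles. DPY-27 is a condensin-like subunit of the dosage compensation complex (DCC), which lowers transcription of both X chromosomes in hermaphrodites. Early embryos of both strains were released by bleach from young adults and collected at once, and several collections were pooled into each replicate, so a library averages over many embryos and over their ages. The homozygous MK4 embryos, used here only for orientation, came from mothers that did not roll. How the heterozygous embryos were obtained was not stated in the sources used here, and since heterozygous mothers also lay homozygous embryos, a library labelled heterozygous may hold more than 1 genotype. In such bulk samples, fewer cells expressing a gene and less RNA of it per cell cannot be told apart.

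At first a C. elegans embryo runs on RNA and protein loaded by the mother. PIE-1 holds the germline precursor in a transcriptionally silent state. Its somatic sisters begin transcription with short-lived bursts of lineage genes such as pes-10 and the end genes. Maternal RNA is then cleared, and transcripts for muscle, epidermis and cuticle accumulate as the embryo reaches the comma stage, when it starts to bend. A difference of embryo age between collections therefore moves both classes at once.

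The values were FPKM, that is fragments scaled to transcript length and to the mapped reads of each library, and they give no library total. Steps between low values showed 1 read to be worth 2.32 and 3.09 times as much in MK4 heterozygous replicates 1 and 2 as in N2 replicate 1, and 1.03 and 1.27 times as much in N2 replicates 2 and 3, so both heterozygous libraries were shallower. Genes above 1 FPKM numbered 10660 and 10288 in the heterozygous libraries, against 9188, 9117 and 9025 in the N2 libraries. The heterozygous pair had a Spearman correlation of 0.88 across genes, against 0.98 to 0.99 among the N2 libraries. Heterozygous replicate 1 was nearest to homozygous MK4 replicates 1 and 2 (0.98 and 0.97), with BS553 early embryos at 0.94 to 0.95 and homozygous replicate 3 at 0.94, and heterozygous replicate 2 to replicate 1 of the dpy-21(e428) strain CB428 (0.96). Replicate 2 correlated with N2 at only 0.77 to 0.79, so it stood apart from the other 4 libraries, and main results are given with and without it.

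The targeted gene did not separate the groups. dpy-27 was at 58.3 and 53.9 FPKM in the MK4 heterozygous libraries, against 56.8, 59.8 and 59.9 FPKM in N2. The ranges overlapped, and the log2 ratio was -0.02 ± 0.23 (SE; 95% interval -0.57 to 0.52; adjusted p = 0.946). Homozygous MK4 early embryos also held dpy-27 RNA, at 39.1, 40.1 and 59.7 FPKM, so the level of this transcript does not check the genotype labels. The balancer marker did check them in part. rol-6, a cuticle collagen gene carried by the balancer's transgene, was at 39.4 and 94.3 FPKM in the MK4 heterozygous libraries, against 0.437, 0.269 and 0.222 FPKM in N2, a log2 ratio of 7.30 ± 0.62 (adjusted p = 0.00845). With N2 below 1 FPKM, it was tested only through its heterozygous mean. Homozygous MK4 libraries held 5.28, 1.15 and 23.3 FPKM of rol-6, between the 2 groups. None of the other 3 balancer genes was higher. glp-1, the Notch receptor of the germline and early embryo, had 53.8 and 28.2 FPKM in heterozygous against 107, 85.1 and 141 FPKM in N2 embryos (log2 ratio -1.43, adjusted p = 0.0251). lag-2, the Notch ligand gene used to build the marker in qIs26, had 10.6 and 9.67 FPKM against 19.1, 23.9 and 14.6 FPKM in N2 (adjusted p = 0.126), and dpy-19, a transmembrane protein needed for neuroblast migration, had 4.26 and 1.87 FPKM against 2.85, 3.39 and 3.73 FPKM in N2 (adjusted p = 0.773).

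Other members of the DCC were also close between the groups. None of the 10 subunit and recruiter genes passed the test, and their median log2 ratio was -0.03, beside -0.06 over all 10271 genes tested. sdc-2, the X-linked gene that recruits the complex to X and starts hermaphrodite development, had 40.8 and 20.1 FPKM in heterozygous embryos and 28.4, 30.1 and 24.9 FPKM in N2, with overlapping ranges. dpy-28, a condensin subunit, was lower in both heterozygous libraries, at 82.8 and 50.2 FPKM against 94.4, 84.6 and 101 FPKM in N2, but its adjusted p was 0.156. Replicate 2 lay outside the other libraries for dpy-21, an H4K20 demethylase of the complex, with 74.98 and 200.3 FPKM in heterozygous replicates 1 and 2 against 83.6 to 88.6 FPKM in N2, and on the other side for the condensin subunit gene capg-1, with 98.2 and 34.4 FPKM against 77.5, 83.3 and 78.0 FPKM in N2. her-1, which drives male development and is repressed by SDC proteins in hermaphrodites, was at 19.6 and 13.8 FPKM in heterozygous against 9.48, 7.57 and 7.32 FPKM in N2 embryos, without overlap but with an adjusted p of 0.0553. Mixed-sex early embryos of BS553, a fog-2(oz40) strain in which about every second embryo is male, held 85.1 to 134.5 FPKM of her-1.

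Embryo age was read from libraries that belong to neither group. For every gene the change between BS553 early and BS553 comma embryos, aged 4 hours, served as an axis, and the slope of each library's deviation along it placed the library between 0 (the mean of BS553 early embryos) and 1 (the mean of BS553 comma embryos). The MK4 heterozygous replicates had slopes of 0.297 and 0.509, against -0.100, -0.118 and -0.156 in N2 early embryos. The group means were 0.403 and -0.124, a difference of 0.527 with a pooled SD of 0.090, and no library of one group entered the range of the other. Without heterozygous replicate 2 the difference was 0.423. N2 comma embryos had slopes of 0.981, 1.01 and 1.21, so the axis from one strain also ordered the stages of another. Homozygous MK4 early embryos stood at 0.325 to 0.476, next to their heterozygous counterparts, and CB428 early embryos at 0.308, 0.273 and -0.098. All slopes share the BS553 early mean as their zero, and they are descriptions with no test. The libraries labelled early embryo in the heterozygous group thus carried a transcript profile shifted toward the comma stage, and genotype and embryo age cannot be told apart in this comparison.

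**Figure D1:**
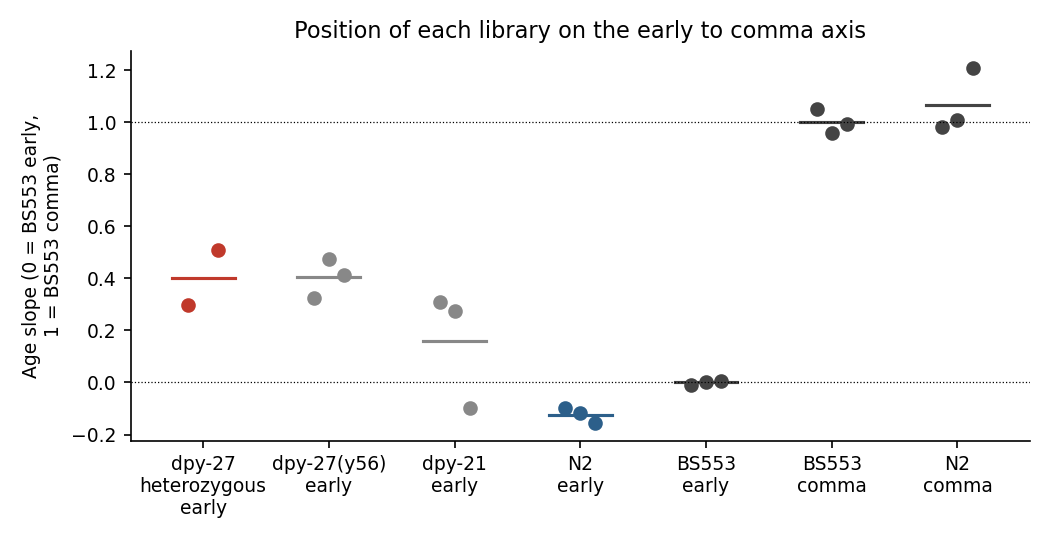
Position of each library on the axis between BS553 early (0) and BS553 comma (1) embryos, as the slope across 10249 genes, with 1 point per library and the groups along the horizontal axis. Both MK4 heterozygous libraries (0.297 and 0.509) sit above the 3 N2 early embryo libraries, which lie just below 0.

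With a mean above 1 FPKM as filter, 1318 genes were higher in MK4 heterozygous than in N2 embryos (12.8% of 10271) and 240 were lower (2.34%) at an adjusted p under 0.05. At an unadjusted p under 0.05, 21% were higher and 13.5% lower. The counts rest on single libraries. Leaving out N2 replicate 3 left 0 genes in either direction by the same limma fit, with 1677 higher and 571 lower at an unadjusted p under 0.05. Leaving out N2 replicate 1 left 635 higher and 35 lower genes, N2 replicate 2 left 332 and 37, heterozygous replicate 2 left 1175 and 421, and heterozygous replicate 1 left 2994 and 2714. Without N2 replicate 3 no gene of any list below passed the test, so every count called here depends on that library. Of all genes tested, 50.3% had groups that did not overlap, with 2947 genes higher and 2217 lower in heterozygous embryos. Lists counted below over all genes measured, before the filter, have no matching background. Without heterozygous replicate 2, the lists described below held 8 maternal fate, 4 cell cycle and 23 proteasome genes called lower, and 14 muscle, 8 epidermal and gut and 7 heat shock genes called higher. The filter itself favours differences, because 1335 genes passed it only through the heterozygous mean and 217 only through the N2 mean. Among the 8719 genes with both group means above 1 FPKM, 472 were higher (5.41%) and 160 lower (1.84%).

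The called genes followed the age axis. Genes at least 2-fold lower in BS553 comma than early embryos form the maternal class (2956 tested), genes at least 2-fold higher the zygotic class (3371) and the rest the flat class (3922). The maternal class rests on decline alone, so it also holds early zygotic genes whose transcripts decline by the comma stage, such as pes-10 and tbx-33. It includes 325 of the 957 tested genes that the study lists as newly expressed in early embryos. Of the zygotic class, 1297 genes were higher and 9 lower in MK4 heterozygous embryos, with a median log2 ratio of 1.53. As 1228 of the class passed the filter only through the heterozygous mean, the 2116 members with both means above 1 FPKM were also taken alone, and of these 461 were higher and 1 lower, with a median of 0.85. Of the maternal class, 1 was higher and 168 were lower, with a median of -0.64. The flat class held 18 higher and 63 lower genes, with a median of -0.17. The N2 mean alone carried 102 maternal and 88 flat genes past the filter. Of the 2838 maternal genes with both means above 1 FPKM, 1 was higher and 128 were lower (median -0.61). Of the 3749 such flat genes, 10 were higher and 31 lower (median -0.17). Without heterozygous replicate 2 the zygotic median was 1.35 and the maternal median -0.39. Across 10249 genes the log2 ratio correlated with the BS553 change (Pearson 0.76), a description over genes of one set of libraries.

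**Figure D2:**
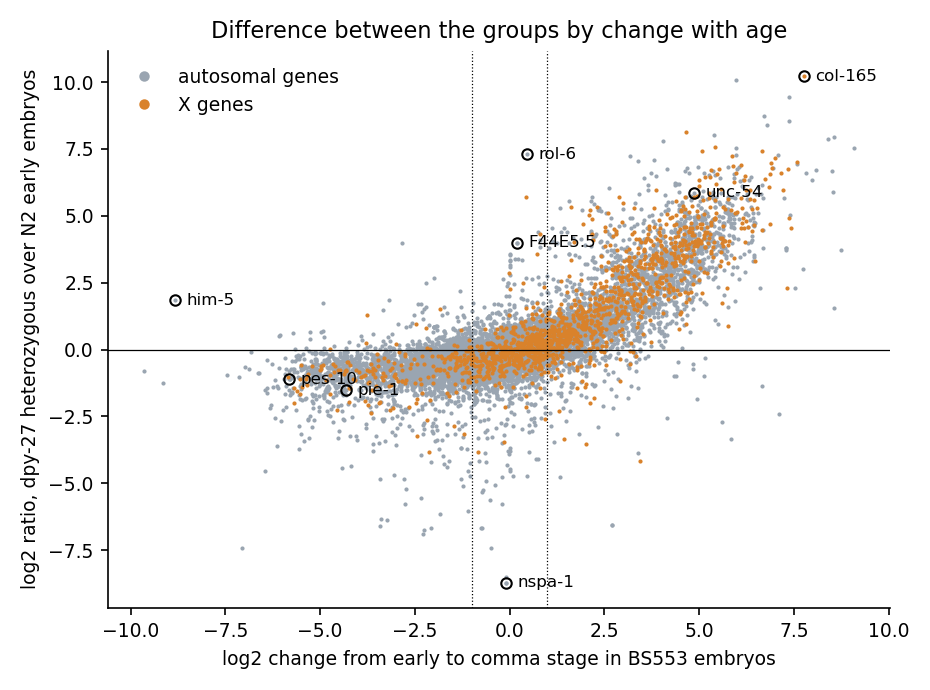
Log2 ratio of MK4 heterozygous over N2 early embryos (vertical) against the log2 change between BS553 early and comma embryos (horizontal), 1 point per gene. X and autosomal genes differ in colour, and dotted vertical lines mark the class limits. The cloud is shallow on the maternal side and steep on the zygotic side, while rol-6 lies far above and nspa-1 far below most genes near a change of 0.

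Measured as levels, the 2 classes were displaced by different amounts. The median zygotic gene stood at 33.3% and 34.8% of its BS553 comma level in the heterozygous libraries, against 11.5%, 11.6% and 8.85% in N2. The median maternal gene stood at 84.9% and 45.7% of its BS553 early level in heterozygous replicates 1 and 2, against 101%, 93.0% and 108.7% in N2. By this measure the heterozygous replicates were alike in the zygotic median and unlike in the maternal one. As median log2 deviation from the N2 mean, replicates 1 and 2 differed in both classes. They stood at 1.29 and 1.92 for zygotic genes and at -0.45 and -0.79 for maternal genes. At the top of the zygotic class they parted again, since 30 genes of replicate 1 and 133 of replicate 2 exceeded all 6 comma libraries, against 9 to 12 genes in N2 libraries.

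Maternal genes that set germline and somatic fate included several that were lower. Of 35 genes for maternal RNA-binding and patterning proteins, 8 were lower and 0 higher, and the median log2 ratio was -0.77. Without overlap, 25 of the 35 were lower, beside 2217 of the 10271 genes tested. larp-1, a La-related RNA-binding protein gene, was the exception without overlap, at 211 and 183 FPKM in heterozygous against 154, 148 and 145 FPKM in N2 embryos (adjusted p = 0.176). pie-1, a zinc finger protein that keeps germline blastomeres transcriptionally silent, was at 163 and 69.4 FPKM in heterozygous against 318, 277 and 355 FPKM in N2 embryos (log2 ratio -1.52 ± 0.28, adjusted p = 0.0186). nos-2, a Nanos homologue of primordial germ cells, was at 93.8 and 41.1 FPKM against 170.7, 165.4 and 209.7 FPKM in N2 (log2 ratio -1.50, adjusted p = 0.0187). In both genes heterozygous replicate 2 was the lowest library, and the groups were well apart. puf-7 and puf-6, which encode Pumilio-family RNA-binding proteins, fell by 1.15 and 1.09 on the log2 scale (adjusted p = 0.0235 and 0.0248). pos-1, a zinc finger regulator of maternal RNA translation and the most abundant of the list's named members, did not pass, at 1211 and 556 FPKM against 1754, 1472 and 2202 FPKM in N2 (adjusted p = 0.0676).

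P granules, the RNA-protein condensates of the germline, gave a smaller count. All 15 P granule genes had a negative log2 ratio (median -0.60), but only the X-linked meg-1, needed for germline proliferation, passed the test. It was at 109 and 61.7 FPKM in heterozygous against 177, 156 and 242 FPKM in N2 embryos (log2 ratio -1.15, adjusted p = 0.0355). Of 14 oocyte and eggshell genes tested, 1 was lower, the eggshell chitin-binding gene cbd-1, at 7.75 and 7.925 FPKM against 20.2, 19.5 and 16.9 FPKM in N2 (adjusted p = 0.0445). Polarity genes, which place the PAR domains and the spindle, showed no such shift, with 0 of 15 called and a median of 0.03.

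Genes of the embryonic cell cycle fell in part. Of 31 cell cycle and centrosome genes, 4 were lower and 0 higher (median -0.49). cdc-25.1, the phosphatase that opens mitosis in germline and early embryo, was at 82.8 and 41.8 FPKM in heterozygous against 144.3, 127.7 and 165.1 FPKM in N2 embryos (log2 ratio -1.25, adjusted p = 0.0225). The others were the B-type cyclin gene cyb-2.1 (log2 ratio -1.38, adjusted p = 0.0297), the Aurora A kinase gene air-1 (-1.13, adjusted p = 0.0319) and the centriole duplication gene spd-2 (-0.98, adjusted p = 0.0413). The most abundant member, cyb-3, another B-type cyclin, was at 3084 and 1871 FPKM in heterozygous against 4555, 4711 and 4383 FPKM in N2 embryos, with an adjusted p of 0.0766.

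Meiotic genes held the only maternal-class gene that was higher. Of 22 meiotic prophase genes, 1 was higher and 2 were lower (median -0.57). him-3, an axis protein of meiotic chromosomes, was among the lower ones, at 16.3 and 10.2 FPKM in heterozygous against 30.0, 22.8 and 31.7 FPKM in N2 embryos (adjusted p = 0.0466). him-5, which promotes crossovers on the X, ran the other way, at 327 and 473 FPKM in heterozygous against 139.8, 103 and 100.1 FPKM in N2 embryos (log2 ratio 1.84 ± 0.36, adjusted p = 0.0228). Both heterozygous libraries exceeded every N2 library. BS553 early embryos spanned 73.5 to 378 FPKM of him-5 and BS553 comma embryos at most 0.388 FPKM, so the level of this transcript varied widely between early collections of one strain and was close to lost by the comma stage.

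Some housekeeping genes were also lower. Of 32 proteasome genes, 9 were lower (median -0.64), with pbs-3, a subunit of the catalytic core, at 152 and 80.4 FPKM in heterozygous against 262, 239 and 275 FPKM in N2 embryos (adjusted p = 0.0200). Of 22 respiratory chain genes, 5 were lower (median -0.51), among them the flat-class ATP synthase gene atp-5 (log2 ratio -0.97, adjusted p = 0.0281). The filter was passed through the N2 mean alone by 1 of the 22, and of the other 21, 4 were lower (median -0.51). Of 75 ribosomal protein genes, 2 were higher and 2 lower (median 0.22). These shares, 2.67% each, stand beside 12.8% higher and 2.34% lower over all genes tested. The ribosomal list's median deviation was -0.10 in heterozygous replicate 1 and 0.65 in replicate 2. Without replicate 1, 34 were higher. The 4 called ribosomal genes were the members of 2 pairs of paralogs that changed in opposite directions, and reads shared within a pair make each level uncertain. The X-linked rpl-25.1 was at 832 and 703 FPKM in heterozygous against 301, 334 and 204 FPKM in N2 embryos (log2 ratio 1.53, adjusted p = 0.0200), and its autosomal paralog rpl-25.2 at 598 and 303 FPKM against 876, 1033 and 923 FPKM in N2 (log2 ratio -1.101, adjusted p = 0.0324). rpl-11.2, also on X, rose by 2.18 on the log2 scale (adjusted p = 0.0275), and the autosomal rpl-11.1 fell by 1.17 (adjusted p = 0.0222). Both X-linked copies belong to the zygotic class.

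**Figure D3:**
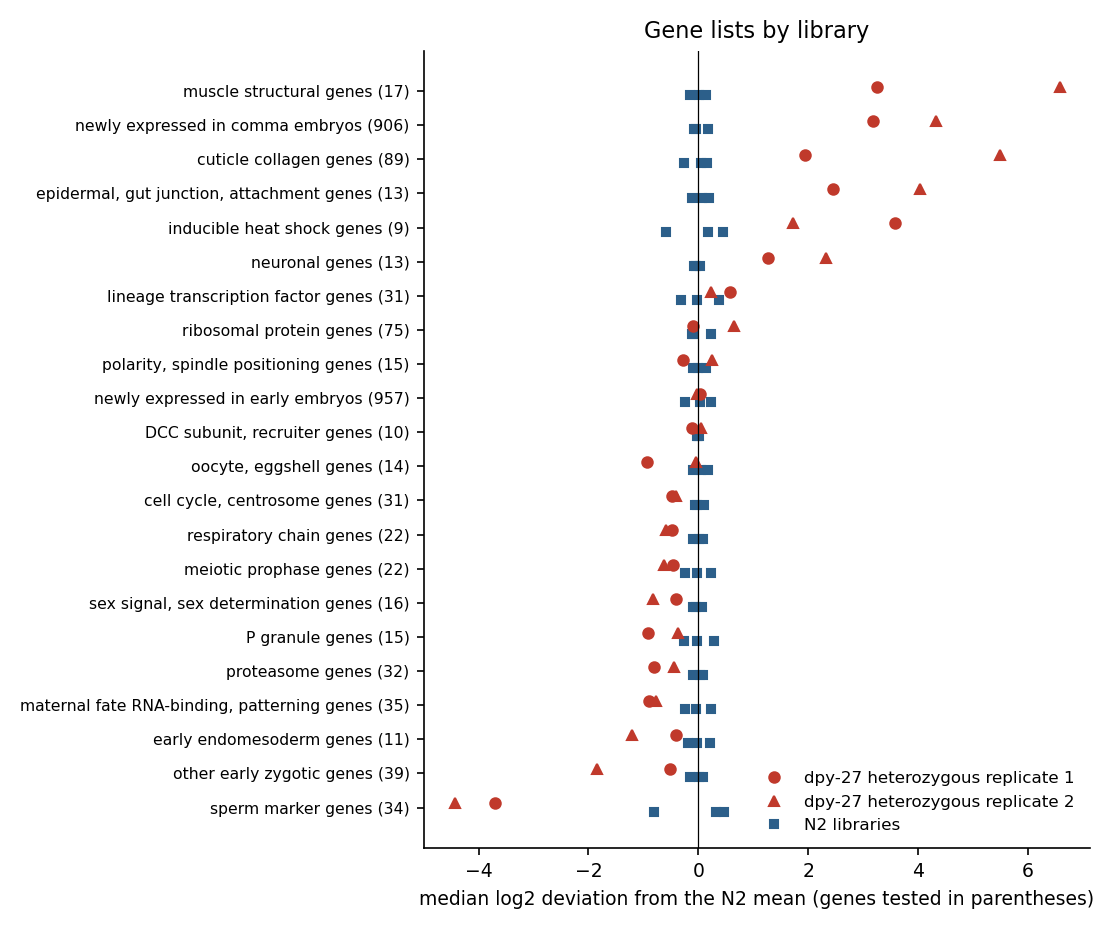
Median deviation of each gene list from the N2 mean (log2 scale) in each of the 5 libraries, with the MK4 heterozygous libraries above the N2 libraries in the legend. In both heterozygous libraries the early zygotic (-0.51 and -1.84) and maternal fate (-0.89 and -0.76) lists lie below 0 and the muscle list (3.26 and 6.57) above 0, while the polarity list lies on either side (-0.29 and 0.24).

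The first transcripts made by the embryo itself were not higher in MK4 heterozygous embryos. Of 39 tested early zygotic genes, whose transcripts peak and vanish before the comma stage, 0 were higher and 1 lower, and 38 had a negative log2 ratio (median -1.23). The share called lower, 2.56%, is near the 2.34% over all genes tested. The T-box gene tbx-33 was the one called, at 62.2 and 20.3 FPKM in heterozygous against 88.9, 93.6 and 101 FPKM in N2 embryos (log2 ratio -1.36, adjusted p = 0.0486). pes-10, a classical marker of the start of somatic transcription, was at 122 and 42.5 FPKM against 164, 169 and 149 FPKM in N2 (adjusted p = 0.0686). In pes-10 as in the list, the drop lay mainly in heterozygous replicate 2, since the list's median deviation from the N2 mean was -0.51 in replicate 1 and -1.84 in replicate 2. pes-1, a forkhead gene of early lineages, had 57.4 and 20.0 FPKM against 81.45, 93.37 and 67.81 FPKM in N2 (adjusted p = 0.0688).

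Of 11 endomesoderm genes, only elt-2 passed, and 9 had a negative ratio (median -0.95). The GATA factor end-3, which acts briefly to specify the gut precursor, had 8.67 and 3.38 FPKM in heterozygous against 12.5, 9.39 and 13.6 FPKM in N2 embryos (adjusted p = 0.113). The T-box gene tbx-38, which acts in the precursors of the anterior pharynx, had 27.2 and 13.02 FPKM against 35.8, 40.55 and 36.6 FPKM in N2 (adjusted p = 0.0606). elt-2, the X-linked GATA factor that takes over gut identity later and stays on, was at 17.3 and 20.1 FPKM against 5.78, 6.34 and 3.39 FPKM in N2 (log2 ratio 1.92 ± 0.42, adjusted p = 0.0311). It lost its call without heterozygous replicate 2. elt-7, another gut GATA factor, overlapped between groups, at 36.9 and 11.11 FPKM against 26.8, 34.7 and 23.7 FPKM in N2. pha-4, the forkhead regulator of the pharynx, also overlapped, at 104.5 and 61.3 FPKM against 63.0, 85.7 and 39.8 FPKM in N2.

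Of 31 lineage transcription factor genes, 5 were higher and 0 lower (median 0.42). That share is near the 12.8% called higher over all genes tested. unc-86 and mab-5 passed the filter only through the heterozygous mean, and of the other 29 genes 3 were higher (median 0.33). unc-86, a POU factor of neuroblasts, was at 6.93 and 12.3 FPKM in heterozygous against 0.578, 0.256 and 0.310 FPKM in N2 embryos (log2 ratio 4.38 ± 0.61, adjusted p = 0.0102). The other named ones were the head Pax gene vab-3 on X (log2 ratio 2.97, adjusted p = 0.0133), the epidermal GATA gene elt-3 on X (2.35, adjusted p = 0.0259) and the Hox gene mab-5 (2.46, adjusted p = 0.0337). The remaining genes of this list ran in both directions, with 11 of 31 below 0.

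Of 17 muscle structural genes, all of them tested, 16 were higher and 0 lower (median 4.84). The filter was passed through the heterozygous mean alone by 5 of them, and of the other 12, 11 were higher (median 4.78). unc-54, the major body wall muscle myosin heavy chain, was at 80.7 and 236 FPKM in MK4 heterozygous against 2.67, 1.76 and 2.74 FPKM in N2 embryos (log2 ratio 5.86 ± 0.62, adjusted p = 0.00845). BS553 comma embryos held 136 to 193 FPKM of unc-54, so heterozygous replicate 2 lay above that range and replicate 1 below it. myo-3, the minor myosin heavy chain, was at 17.04 and 75.45 FPKM against 0.407, 0.0887 and 0.265 FPKM in N2 (adjusted p = 0.00896). It was among the 5 genes that passed the filter through the heterozygous mean alone. pat-2, an integrin alpha subunit of muscle attachment, reached 15.6 and 23.03 FPKM against 1.61, 1.26 and 1.101 FPKM in N2 (adjusted p = 0.00877), and deb-1, which encodes vinculin, reached 33.4 and 69.8 FPKM against 3.98, 3.18 and 3.78 FPKM (adjusted p = 0.00957). The rise was steeper in replicate 2, where the list's median deviation was 6.57 against 3.26 in replicate 1.

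Of 13 epidermal and gut junction and attachment genes, 8 were higher (median 3.35), 7 of them among the 11 with both means above 1 FPKM. let-805, an attachment protein that ties epidermis to muscle, was at 26.7 and 138 FPKM in heterozygous against 1.37, 1.21 and 0.772 FPKM in N2 embryos (log2 ratio 5.72 ± 0.84, adjusted p = 0.0109). The X-linked junction genes dlg-1 and ajm-1 rose by 3.35 and 4.58 on the log2 scale (adjusted p = 0.00976 and 0.0133). Of 15 neuronal genes measured, 13 were higher and 1 lower without overlap, beside 2947 and 2217 of the 10271 genes tested. Only 7 neuronal genes had both means above 1 FPKM, and 1 of these passed the test (median 0.95). Levels of the called genes were low, as in snt-1, the synaptotagmin gene, with 3.08 and 2.12 FPKM against 0.117, 0.153 and 0.189 FPKM in N2 (adjusted p = 0.0138). snt-1 passed the filter through the heterozygous mean alone. The synaptobrevin gene snb-1, the most abundant of the list, ran the other way without passing, at 338 and 208 FPKM against 393.1, 371.1 and 403.6 FPKM in N2 (adjusted p = 0.131).

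**Figure D4:**
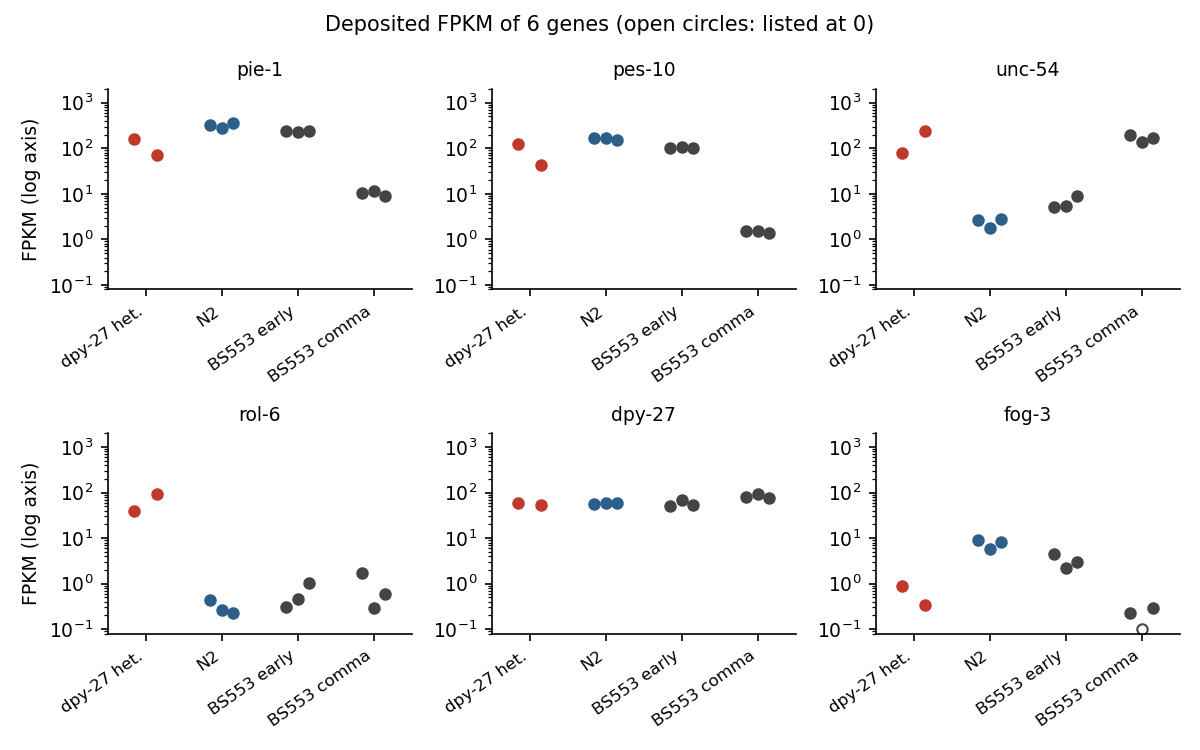
FPKM of 6 genes on a log axis in MK4 heterozygous, N2 early, BS553 early and BS553 comma embryos, 1 point per library. pie-1 and pes-10 are lower and unc-54 higher in the heterozygous libraries than in N2, dpy-27 overlaps, rol-6 is high in the heterozygous libraries (39.4 and 94.3 FPKM) and fog-3 is low there.

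Cuticle genes were among the steepest rises. Of all 178 cuticle collagen genes measured, 84 were higher and 17 lower without overlap, beside 2947 and 2217 of the 10271 genes tested. The filter left 89 collagen genes, of which 38 passed only through the heterozygous mean and 9 only through N2. Of the 42 with both means above 1 FPKM, 15 were higher and 0 lower (median 2.42). The summed level of all 178 was 3001 and 19989 FPKM in MK4 heterozygous embryos, against 399, 389 and 317 FPKM in N2. Heterozygous replicate 2 therefore held several times the collagen RNA of replicate 1. The steepest rise by log2 ratio was the X-linked collagen gene col-165, at 60.1 and 754 FPKM in heterozygous against 0.149, 0.0508 and 0.0628 FPKM in N2 embryos (log2 ratio 10.22 ± 1.16, adjusted p = 0.00845). This gene passed the filter through the heterozygous mean alone. BS553 comma embryos held 48.9 to 155 FPKM of col-165, so replicate 2 exceeded all of them. The collagen gene col-74 showed the same order, at 45.7 and 509 FPKM against 0.0948, 0.0486 and 0.301 FPKM in N2, and so did cut-3, which encodes a cuticlin, at 41.9 and 121 FPKM against 0.0391, 0.1205 and 0.149 FPKM. F53F1.5, the cuticlin gene cut-2 in RefSeq, and F41F3.3 reached 1858 and 3850 FPKM in replicate 2, and 172 and 267 FPKM in replicate 1, with N2 at 4.42 FPKM or less. R02E4.3 and K01D12.9 were listed at 0 in all 3 N2 libraries and stood at 13.99 and 53.5 FPKM, and at 9.71 and 66.6 FPKM, in the heterozygous libraries. dpy-17, the most abundant collagen gene of the list, reached 711 and 5683 FPKM against 113, 128 and 73.4 FPKM in N2 (log2 ratio 4.34, adjusted p = 0.0322).

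The X chromosome stood above the autosomes in the comparison as a whole. The 1449 X genes tested had a median log2 ratio of 0.56, against -0.13 for the 8822 autosomal ones, a shift of 0.694. Single libraries gave X minus autosome scores of 0.640 and 0.743 in MK4 heterozygous embryos, against 0.060, 0.094 and -0.142 in N2. The groups did not overlap, and the exact permutation test over libraries gave a two-sided p of 0.1, the smallest it can give with 2 against 3 libraries. X genes were also the later genes, since their median BS553 change exceeded that of autosomal genes by 1.49 on the log2 scale. Once a straight line over the BS553 change was removed from each library, the shift was 0.065 (exact permutation p = 0.6), and with a smooth curve in place of the line 0.059 (exact permutation p = 0.5). Without heterozygous replicate 2 the shift was 0.627, and over genes with both means above 1 FPKM it was 0.390. The medians of the 5 autosomes ran between -0.17 and 0.01.

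Within classes the shift was carried by zygotic genes. It was -0.13 among maternal genes (197 on X), 0.08 among flat genes (433 on X) and 0.754 among zygotic genes, whose medians were 2.13 over 817 X genes and 1.37 over 2554 autosomal genes. The library scores of the zygotic class were 0.715 and 0.620 in heterozygous embryos, against 0.048, -0.023 and -0.025 in N2 (exact permutation p = 0.1). Over members with both means above 1 FPKM the zygotic shift was 0.324. X genes of this class changed more with age too, by 0.33 at the median. With the straight line removed the zygotic shift was 0.41, and with the smooth curve 0.258, where heterozygous scores of 0.314 and 0.241 lay above N2 scores of 0.040, 0.009 and -0.028 (exact permutation p = 0.1 in both). The remainder differed between the corrections, and genotype and embryo age cannot be told apart in it.

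**Figure D5:**
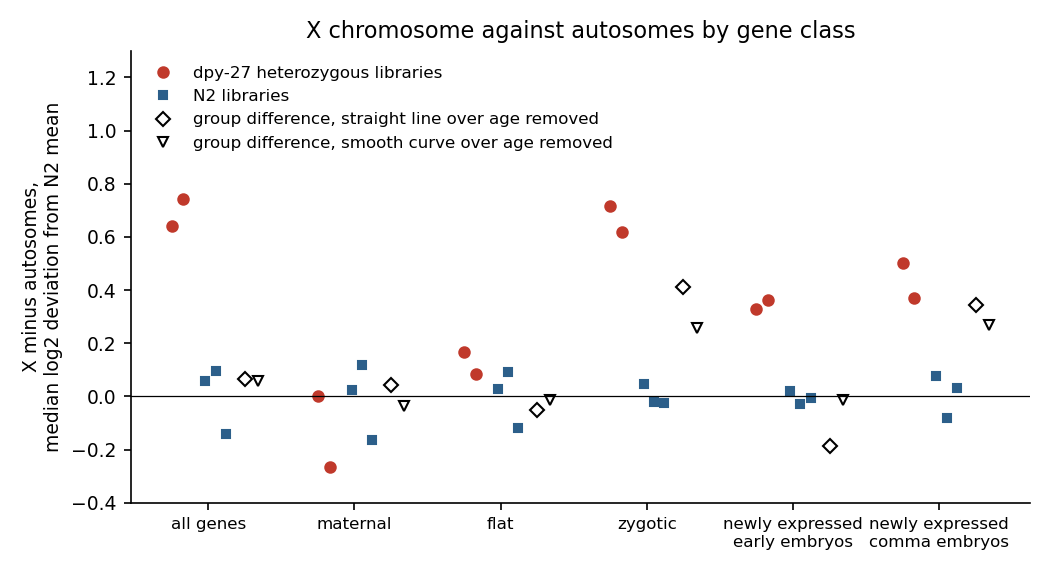
X minus autosome score (difference of medians, log2 scale) in each library for all genes and for the maternal, flat and zygotic classes. The study's lists of genes newly expressed in early and in comma embryos are also shown. Diamonds and triangles give the difference between the groups with the straight line and the smooth curve removed. For all genes the heterozygous scores are 0.640 and 0.743, and the group difference is 0.065 with the line and 0.059 with the curve removed. In the zygotic class the group difference is 0.41 with the line and 0.258 with the curve removed.

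The study's own lists of newly expressed genes were chosen with these N2 libraries among others, so they are not independent of the comparison. Of 957 genes newly expressed in early embryos, 66 were higher (6.9%) and 19 lower (1.99%), beside 12.8% and 2.34% over all genes tested. The median log2 ratio of the list was -0.01. That median averaged opposite parts. The 325 members that decline by the comma stage in BS553 had a median of -1.02 with 0 higher and 13 lower, the 325 flat members one of 0.09, and the 307 members that go on rising one of 0.93 with 66 higher and 3 lower. X members stood above autosomal members by 0.33 over the whole list (exact permutation p = 0.1), but by -0.01 with the smooth curve removed (exact permutation p = 1), and among its rising members the X and autosomal medians were 0.90 and 0.93.

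Sperm transcripts were lower in MK4 heterozygous embryos. Of all 51 sperm genes measured, 40 were lower and 0 higher without overlap, beside 2217 and 2947 of the 10271 genes tested. The summed level of the sperm genes was 16.01 and 11.38 FPKM in heterozygous embryos, against 244, 108 and 275 FPKM in N2. In the heterozygous libraries 19 of the 51 were listed at 0 in both, 15 of which were above 0 in all N2 libraries, and at the greater worth of 1 read there a low level is harder to see. Only 34 passed the filter, 30 of them through the N2 mean alone, so their calls are not counted here. nspd-1 and nspd-4, members of a nematode-specific peptide family, were listed at 0 in both heterozygous libraries and stood at 22.3, 8.36 and 26.8 FPKM and at 12.5, 5.81 and 12.1 FPKM in N2. Their copies share sequence, so levels of single copies are uncertain. The same holds for nspa-1 and nspa-3, another family of this kind, which carried identical values, 0 in the heterozygous libraries and 28.02, 34.5 and 78.0 FPKM in N2. ant-1.4, an adenine nucleotide translocator gene, was at 0.393 and 0 FPKM against 22.8, 16.16 and 25.8 FPKM in N2 (adjusted p = 0.00845). fog-3, which commits germ cells to sperm, was at 0.879 and 0.334 FPKM in heterozygous against 9.20, 5.83 and 8.10 FPKM in N2 embryos (log2 ratio -3.53 ± 0.45, adjusted p = 0.00891), and all 3 N2 libraries were above both heterozygous ones. Both ant-1.4 and fog-3 also passed the filter through the N2 mean alone, so their calls add no support to the sperm list.

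Markers of the adult intestine moved the same way at low levels. The summed level of the 6 vitellogenin genes, which encode yolk proteins made in the mother's gut, was 1.06 and 1.19 FPKM in MK4 heterozygous embryos, against 6.98, 5.58 and 10.9 FPKM in N2. Without overlap, 5 of the 6 were lower. Only vit-2 and vit-6 passed the filter, through N2 alone, with vit-2 at 0.103 and 0.137 FPKM against 1.90, 1.52 and 3.52 FPKM in N2 (adjusted p = 0.0186). Sperm and yolk transcripts were thus both lower in the heterozygous libraries, and their part in the other differences was not tested. Of 9 tested inducible heat shock genes, 5 were higher in heterozygous embryos (median 2.50). hsp-16.48 and hsp-16.49 carried identical values, and the values of hsp-16.1 and hsp-16.11 were close, so the count and median may cover fewer separate signals. The HSP70 gene F44E5.5, nearly identical to F44E5.4 and so uncertain by copy, was at 94.9 and 122 FPKM against 10.6, 9.38 and 3.26 FPKM in N2 (log2 ratio 3.99, adjusted p = 0.0106), and the small heat shock gene hsp-16.1 was at 69.8 and 19.4 FPKM against 3.95, 4.602 and 2.50 FPKM in N2 (adjusted p = 0.0110). The replicates parted for hsp-16.48, another small heat shock gene, at 61.8 and 0.569 FPKM against 3.31, 7.18 and 2.57 FPKM in N2 (adjusted p = 0.779). Homozygous MK4 embryos spanned 75.4 to 218 FPKM of F44E5.5 and 42.2 to 298 FPKM of hsp-16.1. hsp-4, the ER chaperone gene, overlapped between groups, at 208 and 244 FPKM against 197, 218 and 211 FPKM in N2. F44E5.5, hsp-16.1 and hsp-4 belong to the flat class, and the median change of the heat shock list along the BS553 axis was 0.04. What part handling of the collections has in the heat shock genes was not tested.

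Few genes passed the test once a smooth curve over the age axis was removed. With the straight line removed from each library, 409 genes were higher (3.99% of 10249) and 59 lower (0.576%), but the line left the maternal class at a median of 0.53, because the relation bends. With the smooth curve, chosen after seeing that bend, 4 genes were higher (0.039%) and 26 lower (0.254%), and 4 and 23 of these were also called without it. At an unadjusted p under 0.05 by the same limma fit, 765 genes were higher and 639 lower, so a lack of calls does not show a lack of difference. The curve was fitted on the same libraries, so it centres the classes by construction, at 0.11 for maternal and -0.05 for zygotic genes. The 4 higher genes were rol-6, unchanged at a log2 ratio of 7.30 (adjusted p = 0.0242), and, named after their values were seen, cnc-8, C42D4.3 and B0403.5. cnc-8, an X-linked member of the caenacin antimicrobial peptide family, was at 9.61 and 2.56 FPKM in MK4 heterozygous embryos and listed at 0 in all N2 libraries. C42D4.3 was at 7.27 and 13.3 FPKM against 0.251, 0.193 and 0.0794 FPKM in N2, and the X-linked B0403.5 at 4.07 and 3.61 FPKM against 0.0254, 0 and 0 FPKM. Of the 26 lower genes, 6 were nspa, 5 nspd, 4 msp and 2 ant-1 genes. The nspa, nspd and msp genes had passed the filter through N2 alone, and the 4 higher genes through the heterozygous libraries alone. No gene of the maternal fate, P granule, cell cycle, muscle, epidermal, neuronal or heat shock lists was called once the curve was removed. Their medians did not all return to 0, at 1.53 for muscle, 0.36 for epidermal and gut and 3.24 for heat shock genes.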

How the data were processed

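Poly(A) RNA of pooled embryo collections was sequenced by the authors as strand-specific single-end libraries, aligned to genome WS220 with Tophat and quantified per gene with Cufflinks. The version of Cufflinks is 2.2.0 in the submitters' processing notes, where CASAVA 1.8 and HTSeq 0.6.0 also appear, and an earlier release in the study's methods. The deposited unit is FPKM, the authors' length- and depth-normalised value per gene, and no read counts were used. In the same table, 66 further columns were not used here. Chromosomes came from RefSeq locus tags (assembly WBcel235, names only), which placed 19904 of 20411 genes.

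Values of the 5 libraries were scaled by median of ratios and tested as log2(FPKM + 0.1), which understates changes of low genes, with limma 3.58.1 (lmFit and eBayes with trend, 3 residual degrees of freedom) in R 4.3.3 over genes whose 2 group means averaged above 1 FPKM. P-values were adjusted by Benjamini-Hochberg, with 0.05 as threshold. The study's count test could not be run on FPKM. Log2 ratios are MK4 heterozygous over N2. X shifts were tested by two-sided exact permutation of libraries. Age slopes were fitted by least squares per library. The smooth curve was a natural spline with 6 degrees of freedom per library.

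Named genes were the 10 with the largest change in each direction among those passing the test with at least 5 FPKM in the higher group and no overlap, the DCC and balancer genes, and up to 4 members of smallest adjusted p plus the most abundant member of each list. The members and lists were chosen with earlier results of these data known. Replicates are separate pooled collections per the study's methods. On data simulated from these libraries (10271 genes), the test recovered 0.53%, 26.6% and 48.6% of genes changed by 1, 2 and 3 on the log2 scale, and 3.89% of its calls were false, so a gene without a call may well have changed.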

Additional observations from a re-analysis of the deposited data

How the results depend on the processing

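Leaving out 1 library at a time gave 0 to 2994 higher and 0 to 2714 lower genes, X shifts of 0.584 to 0.797, age differences of 0.423 to 0.653, maternal medians of -0.79 to -0.39, zygotic medians of 1.35 to 2.07 and medians of newly expressed genes of -0.09 to 0.09. Other settings gave 500 higher and 41 lower genes with a filter of 5 FPKM, 541 higher with quantile normalization, 361 lower with no filter, 130 lower with no scaling, 832 lower with all 14 early embryo libraries and 151 lower without the variance trend. Over genes with both group means above 1 FPKM, a setting chosen after seeing the data, 472 were higher, the X shift was 0.390 and the zygotic median 0.85. The X shift was 0.451 with the 5 FPKM filter and 0.525 with quantile normalization. The zygotic median was 1.18 with a pseudocount of 1, 1.19 with no filter, 1.23 with the 5 FPKM filter, 0.93 with quantile normalization and 2.60 with a class limit of 4-fold. The median of all genes was -0.18 with quantile normalization and -0.10 with no scaling, against -0.06. Replicate numbers did not pair the libraries (correlations of deviations from -0.12 to 0.12), and the fit with the replicate block gave 552 higher and 45 lower genes and an X shift of 0.580.

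With the age slope as a covariate 0 genes were higher and 1 lower (1547 and 1398 at an unadjusted p under 0.05), the X shift was 0.351, and the maternal, zygotic and newly expressed medians were 0.32, 0.24 and 0.36. With the straight line there were 409 higher and 59 lower genes, an X shift of 0.065 and medians of 0.53 and 0.16. With the smooth curve, added after seeing the data, there were 4 and 26, an X shift of 0.059 and medians of 0.108 and -0.049. Of 56 genes named in the text that passed the test, 16 changed sign with the covariate, 12 with the line and 2 with the curve, and 0 under any other of the settings counted here. The calls of 9 held with the curve, 27 with the line and 0 with the covariate. The covariate gave log2 ratios of 0.24 for pie-1, 0.25 for nos-2, -0.87 for him-5, 0.50 for cyb-2.1, 0.32 for air-1, 0.17 for spd-2, -1.402 for rpl-11.2, 1.27 for tbx-33, -0.33 for elt-2, -0.47 for vab-3, -0.29 for dlg-1, -1.46 for let-805, -1.68 for ajm-1, -0.48 for F53F1.5, -1.94 for F41F3.3 and -4.27 for dpy-17. The line gave 0.41 for glp-1, 0.75 for pie-1, 1.03 for nos-2, 1.17 for puf-6, 1.12 for puf-7, 1.401 for meg-1, 1.16 for him-3, 1.04 for cyb-2.1, 0.036 for air-1, 0.30 for spd-2, 0.14 for pbs-3 and 1.55 for tbx-33, and, among genes that had not passed, 1.81 for end-3, 1.90 for tbx-38 and 1.96 for pes-10. The curve gave -0.27 for elt-3 and -0.41 for deb-1. Leaving out 1 library moved hsp-16.48 between -2.34 and 3.77. The cause of these sign changes was not tested. The depth of both MK4 heterozygous libraries limits genes under about 1 FPKM.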
